A study of Mus musculus with 36 samples.

Results

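Araf encodes a serine/threonine kinase of the RAF family and lies on the X chromosome. It was 1 of the 249 X-linked genes with allelic values in the table of 30 libraries and 1 of the 242 in the table that holds the K518E libraries, and 239 genes were in both. The gene was chosen from measured values of these data, namely its differences between E147A or Y353C and Halo-SMCHD1 at day 7, so those differences are given below as descriptions with no test. It is described here across 36 libraries of 8 lines, beside the 17 genes in the tables that start within 1 Mb of it.

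The study asked which features of SMCHD1, and whether its partner LRIF1, are needed to silence the inactive X chromosome (Xi). All lines were female mouse embryonic stem cells from a 129S x Cast cross in which a doxycycline (dox) responsive promoter drives Xist from the 129S X chromosome, so the 129S allele is the one silenced (Xi) and the Cast allele remains active (Xa). iXist-ChrX is the parental line. SMCHD1 KO was made from it, as was Halo-SMCHD1, in which the endogenous protein carries a Halo tag and a transgene for eGFP-CIZ1, a marker of the Xi, sits in the Rosa26 locus. LRIF1 KO and the biallelic SMCHD1 point mutants E147A, Y353C, G137E and K518E were made in Halo-SMCHD1 and carry the tag and the transgene too. Chromatin-associated RNA was sequenced in untreated cells (uninduced), after 24 h in 1.0 µg/ml dox without differentiation, and at days 5 and 7 of monolayer differentiation under dox. Halo-SMCHD1 and the 5 lines made from it have 1 library each before induction and at 24 h. Halo-SMCHD1, G137E and K518E have 2 libraries each at day 5. At day 7 there are 3 libraries of Halo-SMCHD1, 3 of G137E and 2 of each other line. Each line is 1 clone, and the libraries of a group are repeats of that clone, so p-values measure the spread between repeats and not between clones.

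RAF kinases act between RAS and the kinases MEK and ERK: active RAS recruits RAF to the membrane, RAF phosphorylates MEK, and MEK phosphorylates ERK. In mouse embryonic stem cells this pathway is known for promoting the exit from pluripotency. SMCHD1 is an ATPase of the SMC protein family that accumulates on the Xi and is known for keeping a subset of its genes silent, and LRIF1 binds both SMCHD1 and HP1 proteins.

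The measure throughout is the fraction of a gene's allele-specific reads that came from the Xi, Xi/(Xi+Xa), which is near 0.5 when both alleles are transcribed alike and 0 when no read came from the Xi. It says nothing of a gene's total level. The number of reads behind a fraction is unknown, so no counting interval can be given. Differences were tested with limma on the log2 odds of the fraction, log2((f + 0.01)/(1 - f + 0.01)), with adjusted p-values over all genes of the table and a threshold of 0.05. Exact two-sided permutation tests of the mean fraction of Araf are given beside them. No pair of libraries held identical values. Over all genes of a library, the median fraction was 0.514 to 0.524 before induction, 0.212 to 0.277 at 24 h, 0.0371 to 0.0769 at day 5 and 0.0198 to 0.101 at day 7. Xist itself was at 0.997 to 0.999 in the 30 induced libraries and at 0.881 to 0.995 in the 6 uninduced ones. The tables hold X-linked genes only, so neither the cell type nor the autosomal genes Smchd1 and Lrif1 could be checked.

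Araf is on the plus strand of chromosome X of mm10. The listed start, corrected by 1 base because the starts in the tables are counted from 0, is 20848543, and the start and length listed for it span 20848543 to 20860521. The stop position printed in the table, 20852905, belongs to a shorter transcript. In GENCODE vM21 the main protein-coding transcript, Araf-201, has 16 exons and spans 20848543 to 20860519, and 1 transcript subject to nonsense-mediated decay starts upstream at 20797814. Counting covered exons and introns together. The gene Syn1 runs in the other direction from 20920918 to 20860511 and meets the last exon of Araf at its 3′ end. Reads were counted by strand, which keeps the 2 genes apart.

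The 250 bases before the start of Araf (chrX:20848293-20848542, plus strand, RefSeq, GRCm38.p6) are shown because CpG sites in promoters are where methylation is laid down on the Xi. Capitals mark the CG dinucleotides, which read the same on both strands.
Araf promoter: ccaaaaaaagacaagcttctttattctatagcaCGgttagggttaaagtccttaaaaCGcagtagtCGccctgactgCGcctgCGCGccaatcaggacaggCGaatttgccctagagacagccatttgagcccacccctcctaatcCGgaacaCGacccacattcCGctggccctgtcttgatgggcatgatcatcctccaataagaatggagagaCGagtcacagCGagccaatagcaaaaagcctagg
The window holds 12 CG dinucleotides and has a GC content of 51.2%. Of the 249 genes, 206 could be matched to such a window within reach of their listed start, and their median was 12.5 CG dinucleotides. Among the other matched genes, 54.1% had as many as Araf or more. Of the 16 neighbours that matched, 7 had 12 or more, from 2 in Cfp, which encodes the complement factor properdin, to 27 in Syn1, which encodes the synaptic vesicle protein synapsin I. The CG content of the Araf promoter was thus near the middle of these genes.

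Before Xist was induced, Araf was transcribed almost evenly from both alleles. Its Xi fraction was 0.530 in Halo-SMCHD1, 0.486 in LRIF1 KO, 0.501 in E147A, 0.507 in Y353C, 0.511 in G137E and 0.527 in K518E. It lay above 29.4% to 61.7% of the other genes of its library, so Araf held no marked place before induction.

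After 24 h of dox Araf had lost less of its Xi fraction than most genes in each of the 6 lines measured. Its Xi fraction was 0.380 in Halo-SMCHD1, 0.359 in LRIF1 KO, 0.369 in E147A, 0.396 in Y353C, 0.377 in G137E and 0.368 in K518E. These values were 71.7%, 73.9%, 73.6%, 78.0%, 73.7% and 69.9% of the uninduced value of the same line. The median gene kept 42.0% to 55.1%, and the share kept by Araf was higher than that of 78.6% to 90.5% of the other genes. With 1 library a line at these stages there is no test, and the lines cannot be ranked.

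**Figure D1:**
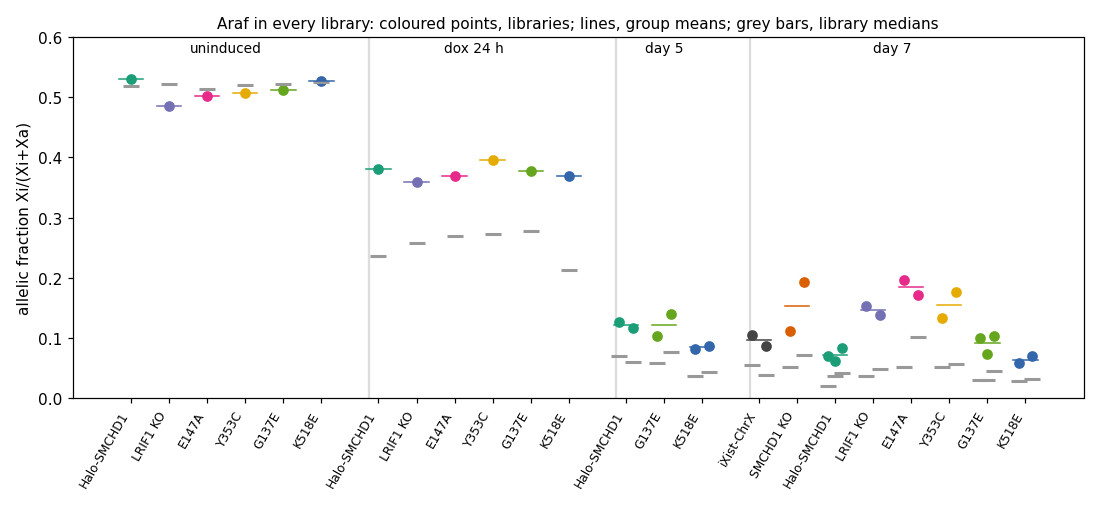
Xi/(Xi+Xa) of Araf (vertical axis) in each of the 36 libraries, grouped by stage and line; coloured points are libraries, coloured lines group means and grey bars the medians of all genes in the same library. Araf starts beside the medians (0.486 to 0.530), stays above them at 24 h (0.359 to 0.396) and lies above the median in 24 of 24 differentiated libraries.

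Several neighbours of Araf were also slow at 24 h, while others were not. Averaged over the 6 lines, Araf kept 73.5% of its uninduced fraction, which placed it second among the 18 genes of the region. Uba1, which encodes the enzyme that starts ubiquitin conjugation, kept 74.1%. Ndufb11, a subunit of mitochondrial complex I, kept 72.8%, and the zinc finger gene Zfp182 kept 69.8%. At the other end, Slc9a7, a sodium/proton exchanger, kept 39.4% and Chst7, a chondroitin sulfotransferase, kept 42.6%. The values of Araf spread little across the lines, from 69.9% to 78.0%, and those of Uba1 little more, from 69.0% to 78.7%. Zfp300, another zinc finger gene, ranged from 25.8% to 76.6%.

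**Figure D2:**
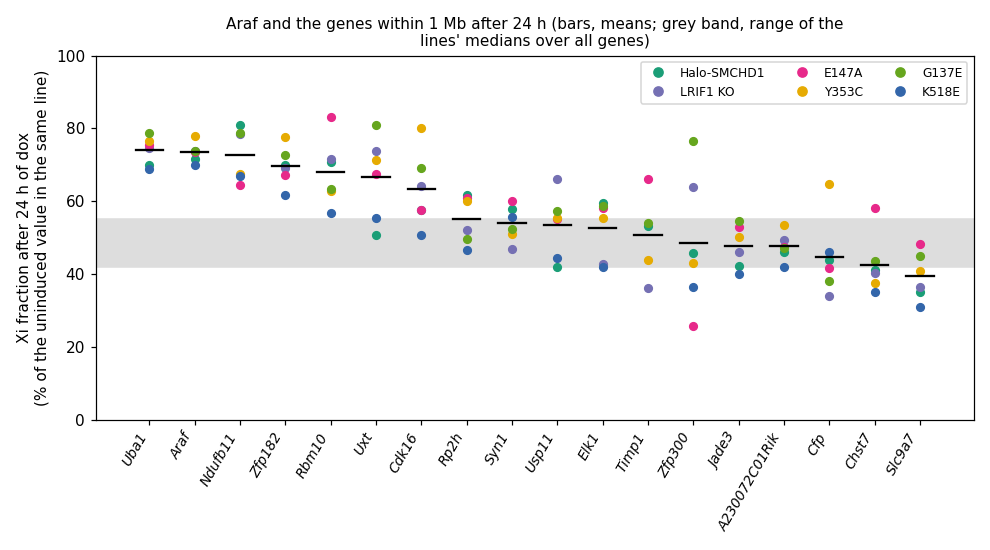
Xi fraction after 24 h of dox as a percentage of the uninduced value in the same line (vertical axis) for Araf and its neighbours, ordered by their means (black bars); points are lines and the grey band is the range of the lines' medians over all genes. The 6 Araf points lie between 69.9% and 78.0%, above the band of 42.0% to 55.1%.

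At day 5 between 0.0816 and 0.140 of the allelic reads of Araf still came from the Xi. Its Xi fraction was 0.126 and 0.116 in Halo-SMCHD1, 0.104 and 0.140 in G137E, and 0.0816 and 0.0875 in K518E. The 2 K518E libraries lay below both of Halo-SMCHD1, and the G137E libraries lay on either side of them. As a share of the uninduced value of the same line, the mean was 22.9% ± 1.3 in Halo-SMCHD1, 23.9% ± 5.1 in G137E and 16.0% ± 0.79 in K518E (SD, n = 2 each).

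At day 7 the Xi fraction of Araf was 0.0703, 0.0619 and 0.0828 in Halo-SMCHD1. It was 0.105 and 0.0868 in iXist-ChrX and 0.112 and 0.193 in SMCHD1 KO. It was 0.153 and 0.139 in LRIF1 KO. The controls were low, with every library of Halo-SMCHD1 below both of iXist-ChrX. A low value in Halo-SMCHD1 favoured the choice of Araf, and the share of all genes in that order was not counted. The 2 SMCHD1 KO libraries stood far apart. In the point mutants the Xi fraction of Araf was 0.196 and 0.171 in E147A, and 0.134 and 0.177 in Y353C. G137E had 0.100, 0.0737 and 0.103, and K518E had 0.0578 and 0.0694. E147A and Y353C thus lay above every library of Halo-SMCHD1, while G137E and K518E overlapped it.

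In order of their day 7 means, the lines were K518E (0.0636 ± 0.0083, n = 2), Halo-SMCHD1 (0.0717 ± 0.011, n = 3), G137E (0.0922 ± 0.016, n = 3), iXist-ChrX (0.0960 ± 0.013, n = 2), LRIF1 KO (0.146 ± 0.010, n = 2), SMCHD1 KO (0.153 ± 0.057, n = 2), Y353C (0.155 ± 0.031, n = 2) and E147A (0.184 ± 0.018, n = 2; all SD). Neighbouring lines in this order overlapped in their libraries with 1 exception, the step from iXist-ChrX to LRIF1 KO. SMCHD1 KO replicate 1, at 0.112, lay below both LRIF1 KO libraries. The pooled SD of Araf within groups of day 5 and day 7 libraries was 0.0221 on 13 degrees of freedom.

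Araf was above the median gene of its library in 24 of 24 differentiated libraries, and above 71.0% to 90.7% of the other genes. The neighbours Uba1 and Zfp182 were also above the median gene in each of these libraries. In 6 of the 18 day 7 libraries no neighbour within 1 Mb had a higher Xi fraction than Araf. These were E147A replicate 1, SMCHD1 KO replicate 2, LRIF1 KO replicate 1, G137E replicate 1 and both Y353C libraries. In the remaining 12, up to 6 neighbours were higher. Araf was chosen for its high values in E147A and Y353C, so its rank in those libraries is no finding.

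The median of the whole chromosome differed between libraries of a group, and Araf did not always follow it. In E147A, replicate 1 had a library median of 0.0526 and Araf at 0.196, while the second library, whose column name carries a replicate number that matches no label, had a median of 0.101 and Araf at 0.171. Araf was thus higher in the E147A library with the lower median. In SMCHD1 KO the order was the reverse: the library median was 0.0526 with Araf at 0.112 in replicate 1, and 0.0714 with Araf at 0.193 in replicate 2. The LRIF1 KO medians, 0.0362 and 0.0492, lay within the range of Halo-SMCHD1 and iXist-ChrX (0.0198 to 0.0549), and both Araf values lay above all 5 libraries of those lines. The Halo-SMCHD1 libraries among the 5 are ones Araf was chosen on, and the share of all genes above all 5 was not counted.

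**Figure D3:**
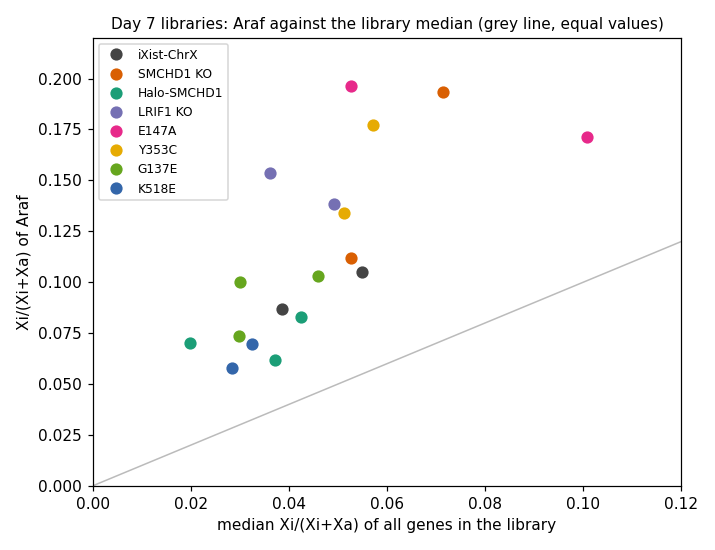
Xi/(Xi+Xa) of Araf (vertical axis) against the median Xi/(Xi+Xa) of all genes of the library (horizontal axis) for the 18 day 7 libraries, coloured by line; the grey line marks equal values. All points lie above the line, and the E147A pair is widely split by median (0.0526 and 0.101) with little split in Araf (0.196 and 0.171).

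The comparison of SMCHD1 KO with iXist-ChrX asks what loss of the protein does. Its difference shares no library with those that Araf was chosen on. The spread used by limma, however, was estimated over all differentiated libraries fitted together, which include the ones that chose Araf. The mean Xi fraction was 1.59 times that of iXist-ChrX, and the libraries did not overlap. The log2 odds were higher by 0.67 ± 0.31 (SE; 95% confidence interval -0.01 to 1.35), where the median over all genes was 0.26. The adjusted p of limma was 0.363, and the exact permutation p was 0.333, the smallest that 2 libraries against 2 allow. The difference did not pass the threshold. It was 0.23 without SMCHD1 KO replicate 2 and 1.11 without replicate 1. Over all genes, 0.803% were called in this comparison, and 27.7% had SMCHD1 KO libraries that were both above those of iXist-ChrX. With Halo-SMCHD1 in place of iXist-ChrX as the control, the difference of Araf was 1.09 ± 0.29 (limma adjusted p = 0.0307). That fit uses the Halo-SMCHD1 libraries on which Araf was chosen, so it is no separate evidence.

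The comparison of LRIF1 KO with Halo-SMCHD1 asks whether loss of the partner protein matters, and it shares the Halo-SMCHD1 libraries with the differences that Araf was chosen on. The mean Xi fraction was 2.04 times that of Halo-SMCHD1, with no overlap between libraries. The log2 odds were higher by 1.06 ± 0.29 (SE; 95% confidence interval 0.44 to 1.68), and 32 of 249 genes had a larger difference. The unadjusted p of limma was 0.00268 and the adjusted p was 0.133, which did not pass the threshold, and the exact permutation p was 0.2, below which 2 libraries against 3 cannot go. With each library's median subtracted the difference was 0.73 ± 0.35 (limma adjusted p = 0.532), and against iXist-ChrX it was 0.64 ± 0.31 (limma adjusted p = 0.769). In this comparison 0.0% of genes were called by limma, 25 were higher and 3 lower at an unadjusted p under 0.05, and 21.3% were without overlap and higher in LRIF1 KO.

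Halo-SMCHD1 was also compared with iXist-ChrX. The tag, the eGFP-CIZ1 transgene and the clone cannot be told apart in this comparison, and it uses the Halo-SMCHD1 libraries on which Araf was chosen. Araf was at 0.746 times the iXist-ChrX mean in Halo-SMCHD1, a difference in log2 odds of -0.42 ± 0.29 (limma adjusted p = 0.539; exact permutation p = 0.2), where the median over all genes was -0.36. With library medians subtracted it was 0.02, so its sign depended on the level of the chromosome. Again 0.0% of genes were called by limma, with 1 higher and 28 lower at an unadjusted p under 0.05.

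For E147A and Y353C, the values that chose Araf are given without a test. The mean in E147A was 2.56 times that of Halo-SMCHD1, a difference of 0.112 in Xi fraction and of 1.44 in log2 odds, beside a median of 0.87 over all genes. In Y353C it was 2.17 times, a difference of 0.0838 in Xi fraction and of 1.15 in log2 odds, beside a median of 0.52. Libraries without overlap and higher in the mutant were found for 46.2% of genes in E147A and 42.2% in Y353C. After subtraction of library medians, the differences were 0.38 in E147A and 0.51 in Y353C. Larger unadjusted differences than that of Araf were found in 44 genes for E147A and in 49 for Y353C. As a share of the uninduced value of the same line, Araf was at 36.7% ± 3.6 in E147A, 30.6% ± 6.0 in Y353C and 30.1% ± 2.2 in LRIF1 KO (SD, n = 2 each), against 13.5% ± 2.0 in Halo-SMCHD1 (SD, n = 3).

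At day 7 neither G137E nor K518E differed from Halo-SMCHD1 past the threshold. The difference in log2 odds of Araf was 0.35 in G137E (95% confidence interval -0.11 to 0.81; limma adjusted p = 0.737; exact permutation p = 0.2) and -0.16 in K518E (-0.67 to 0.35; limma adjusted p = 0.924; exact permutation p = 0.4). Both share the Halo-SMCHD1 libraries with the differences that chose Araf. In each of the 2 comparisons 0.0% of genes were called by limma, and at an unadjusted p under 0.05 there were 13 higher and 7 lower in G137E, and 8 higher and 4 lower in K518E. Both intervals include 0.

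At day 5, with no library in common with the choice of Araf, G137E differed from Halo-SMCHD1 by -0.01 in log2 odds (95% confidence interval -0.57 to 0.56; limma adjusted p = 1.0; exact permutation p = 1.0), and 0.0% of genes were called by limma, with 3 higher and 4 lower at an unadjusted p under 0.05. K518E had 0.696 times the Halo-SMCHD1 mean, a difference of -0.53 (-1.10 to 0.03; limma adjusted p = 0.343), and the exact permutation p of 0.333 was the smallest possible. Its libraries did not overlap those of Halo-SMCHD1, which held for 60.7% of genes in the same direction. The share called by limma was 0.413%, with 1 gene higher and 0 lower. At an unadjusted p under 0.05 there were 2 higher and 29 lower. The median over all genes was -0.46, and with library medians subtracted the difference of Araf was 0.08. The spread in these limma fits was estimated over all differentiated libraries fitted together, which include the Halo-SMCHD1 day 7 libraries that chose Araf.

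Between day 5 and day 7 the mean Xi fraction of Araf was lower at day 7 in the 3 lines measured at both times, with no difference past the threshold in the fit as designed. The log2 odds differed by -0.77 ± 0.23 in Halo-SMCHD1 (limma adjusted p = 0.0601; exact permutation p = 0.2), -0.41 ± 0.23 in G137E (adjusted p = 0.240; exact p = 0.2) and -0.40 ± 0.25 in K518E (adjusted p = 0.931; exact p = 0.333). The day 7 libraries lay below the day 5 libraries in each line, in G137E only narrowly (0.1028 the highest at day 7, 0.1037 the lowest at day 5). The share of all genes that did so was not counted. The medians over all genes were -0.68, -0.64 and -0.22, and 9.5%, 7.44% and 0.413% of genes were called. With each library's median subtracted, the difference of Araf was 0.12 in Halo-SMCHD1, 0.41 in G137E and -0.07 in K518E, and limma called none of these. The Halo-SMCHD1 day 7 libraries are among those Araf was chosen on, where a low Araf value favoured its choice. The Halo-SMCHD1 difference passed the threshold with a pseudocount of 0.05, with untransformed fractions and without day 7 replicate 3 (adjusted p of 0.0305, 0.0199 and 0.0488, limma). Whether the mutant's difference from Halo-SMCHD1 changed between the days was tested directly: the day 5 difference minus the day 7 difference was -0.37 ± 0.34 for K518E (limma adjusted p = 0.737) and -0.36 ± 0.32 for G137E (limma adjusted p = 0.996), beside 0.413% and 0.0% of genes called.

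**Figure D4:**
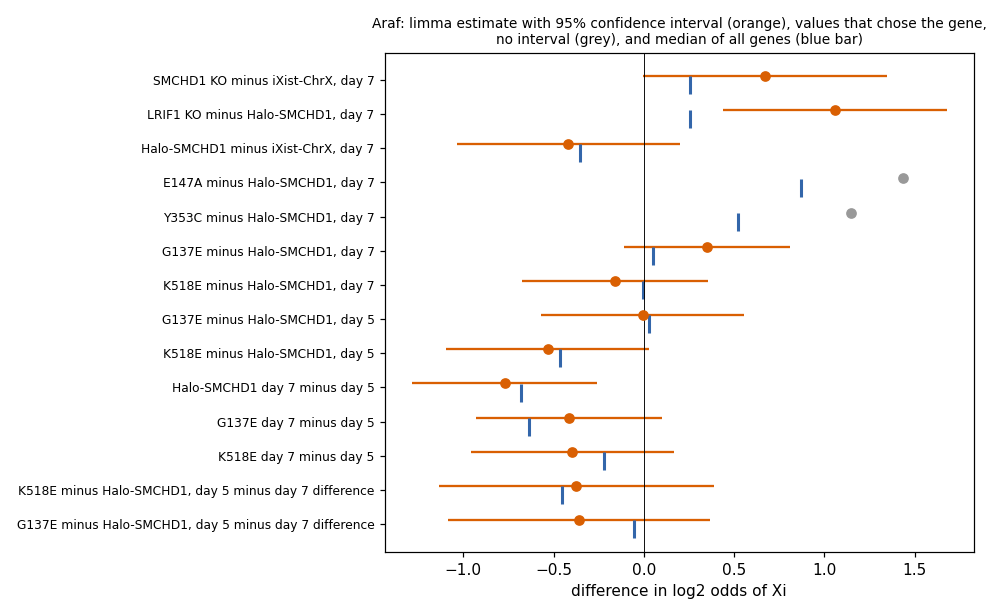
Difference in the log2 odds of the Xi fraction of Araf (horizontal axis) for each comparison; orange points are limma estimates with 95% confidence intervals, grey points the 2 values on which the gene was chosen, and blue bars the medians of all genes tested. The intervals of LRIF1 KO minus Halo-SMCHD1 (0.44 to 1.68) and of Halo-SMCHD1 day 7 minus day 5 exclude 0 before adjustment over genes.

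Of the 17 genes that start within 1 Mb of Araf, 9 start before it and 8 after it. Starts are counted here at the lower coordinate, which for minus-strand genes such as Syn1 is the 3′ end. The nearest by this count are Syn1 and Timp1, an inhibitor of metalloproteinases that lies within Syn1 on the opposite strand. Timp1 is in the table of 30 libraries only, so 16 neighbours were compared in K518E and G137E. The neighbours did not move as a block. In SMCHD1 KO against iXist-ChrX, 11 of 17 had a difference above 0, their median was 0.09 beside 0.26 over all genes, and 2 had a larger difference than Araf. Limma called none, with 1 of 17 at an unadjusted p under 0.05, and libraries without overlap were higher in SMCHD1 KO for Usp11, a deubiquitinase, and the transcript A230072C01Rik, and lower for Slc9a7, Syn1 and Uxt, which encodes a prefoldin-like chaperone. Over all genes, 7.63% were lower without overlap.

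In LRIF1 KO against Halo-SMCHD1, 13 of 17 neighbours had a difference above 0, with a median of 0.36 beside 0.26 over all genes. Limma called none, and Chst7 alone had an unadjusted p under 0.05. Chst7 was at 0.0366 and 0.0358 in LRIF1 KO, and at 0, 0.00826 and 0.0119 in Halo-SMCHD1. A larger difference than that of Araf was found in 2 of 17 neighbours, Chst7 among them. The difference of Chst7 was 1.58 ± 0.42, with the same adjusted p as Araf (limma, 0.133). Chst7, Usp11, Uxt and Zfp182, 4 of 17, were higher in LRIF1 KO without overlap, beside the 21.3% of all genes, and Cfp was lower without overlap, beside 2.81%. Uba1, which was as slow as Araf at 24 h, was at 0.0915 and 0.139 in LRIF1 KO and at 0.0571, 0.102 and 0.123 in Halo-SMCHD1. Its libraries overlapped where those of Araf did not. Araf was chosen on differences from these Halo-SMCHD1 libraries, so the contrast with Uba1 is no finding.

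In E147A against Halo-SMCHD1, 16 of 17 neighbours had a difference above 0, with a median of 1.10 beside 0.87 over all genes. Limma called 2 of them, beside 16.1% of all genes: Chst7 (2.16 ± 0.42, adjusted p = 0.00907) and Zfp182 (1.10 ± 0.23, adjusted p = 0.0113). Zfp182 was at 0.173 and 0.159 in E147A, and at 0.0864, 0.0688 and 0.0869 in Halo-SMCHD1. The count rested on single libraries: it was 7 without E147A replicate 1 and 0 without the other E147A library. Ndufb11 was at 0.0741 in replicate 1 and 0.237 in the other library, and the RNA-binding protein gene Rbm10 was at 0.0710 and 0.225. Both were higher in the library with the higher median, as were most neighbours. Araf was not, and neither were Zfp182 and Chst7, the neighbours called (Chst7 at 0.0594 in replicate 1 and 0.0552 in the other library).

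In Y353C against Halo-SMCHD1, 15 of 17 neighbours had a difference above 0, but their median of 0.25 was below the 0.52 of all genes. Chst7 alone was called (1.93 ± 0.42, limma adjusted p = 0.0217), beside 3.61% of all genes, and it was not called without Halo-SMCHD1 replicate 1 or without either Y353C library. Only Chst7, Ndufb11 and Syn1 had a larger difference than Araf. Libraries without overlap and higher in the mutant were found for 7 of 17 neighbours in E147A and for 7 of 17 in Y353C, beside the 46.2% and 42.2% of all genes. Both comparisons are the ones Araf was chosen on.

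**Figure D5:**
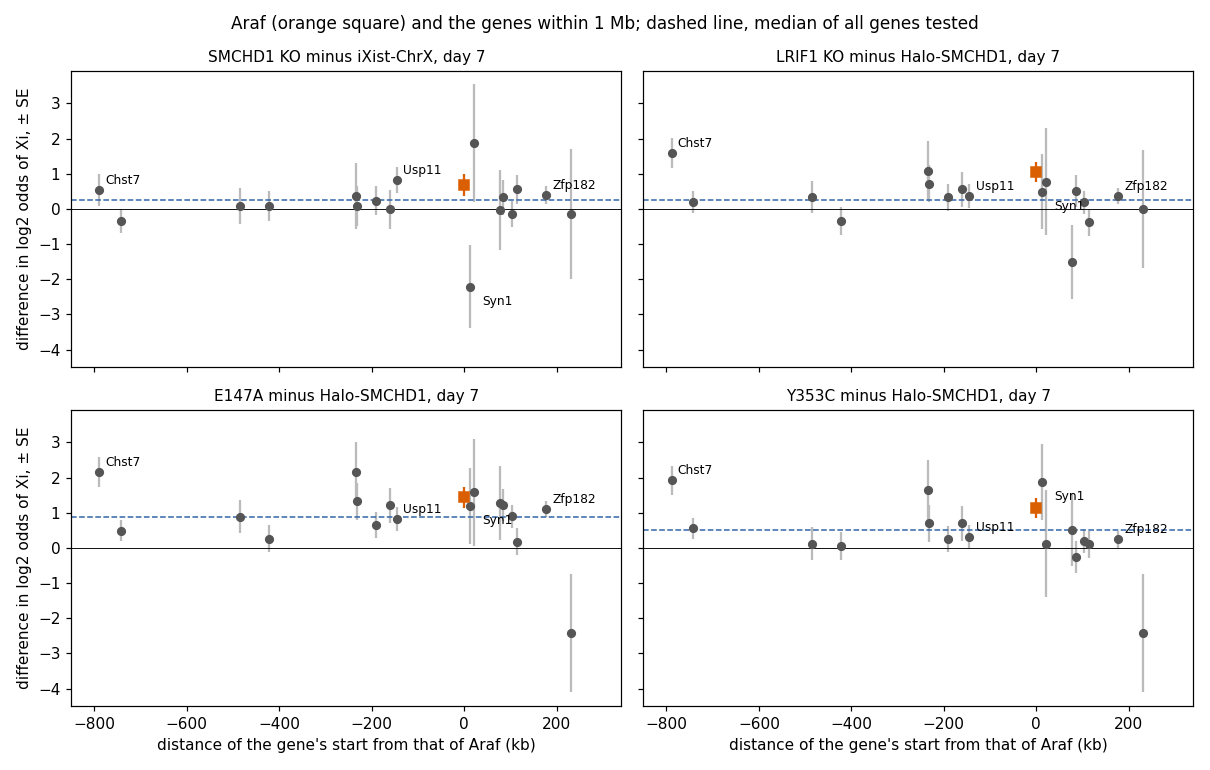
Difference in the log2 odds of the Xi fraction at day 7 (vertical axis, ± SE) against the distance of a gene's start from that of Araf in kb (horizontal axis), for Araf (orange square) and its 17 neighbours in 4 comparisons; the dashed line is the median of all genes tested. The median of the neighbours was 0.36 in LRIF1 KO and 0.25 in Y353C, where Araf lies at 1.06 and 1.15. Of the 17 neighbours, 2 lie above Araf in LRIF1 KO and 3 in Y353C, Chst7 among them in both. Starts are lower coordinates, which for minus-strand genes mark the 3′ end.

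Some neighbours varied widely between libraries. Zfp300 was listed at 0 in 11 of 18 day 7 libraries and at 0.214 in 1 LRIF1 KO library, and Timp1 ran from 0 to 0.400. Their standard errors, such as 1.69 for Zfp300 and 1.53 for Timp1 in the LRIF1 KO comparison, were far above the 0.29 of Araf. Against Halo-SMCHD1, limma called 0 of 16 neighbours in G137E and in K518E on either day, with unadjusted p under 0.05 for 1 in G137E and 4 in K518E at day 5, and for 2 and 3 at day 7. Between days 5 and 7, Chst7 was called lower in Halo-SMCHD1 (-2.30 ± 0.35, adjusted p = 0.0151), and 0 of 16 were called in G137E and in K518E, beside 9.5%, 7.44% and 0.413% of all genes. In K518E against Halo-SMCHD1 at day 5, 12 of 16 neighbours had lower libraries without overlap, beside the 60.7% of all genes.

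Other X-linked genes that belong to the ERK pathway gave little to set beside Araf. Of 9 listed, 3 were in the tables: Elk1, a transcription factor that ERK phosphorylates and a neighbour of Araf, Dusp9, a phosphatase that acts on ERK, and Gab3, an adaptor protein. Limma called 0 of 3 in every comparison, where the share called over all genes ran from 0.0% to 16.1%. In E147A, Elk1 was at 0.0866 and 0.115, above the 0.0244, 0.0643 and 0.0387 of Halo-SMCHD1 (1.23 ± 0.45, adjusted p = 0.0733), while in Y353C it was at 0.0457 and 0.0219. Neither Y353C library was above the highest of Halo-SMCHD1 in Elk1. Both were in Araf, but Araf was chosen on that difference, so the contrast with Elk1 is no finding. Dusp9 was at 0.0251 and 0.0179 in Y353C and at 0, 0.00730 and 0.00568 in Halo-SMCHD1, all of them low values. It was thus higher in Y353C without overlap (1.19 ± 0.60, limma adjusted p = 0.285), as were 42.2% of all genes. The median of the 3 in Y353C was -0.26, beside 0.52 over all genes.

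Of 13 other X-linked kinase genes listed, 7 were in the tables: Cdk16, Pim2, Prkx, Irak1, Taf1, Pdk3 and Cask. Limma called Prkx, a cAMP-dependent kinase relative (1.31 ± 0.38, adjusted p = 0.0389), Taf1, the largest subunit of TFIID (0.85 ± 0.20, adjusted p = 0.0164), and Cask, a synaptic scaffold (1.20 ± 0.33, adjusted p = 0.0389), as higher in E147A, and none in Y353C, LRIF1 KO or SMCHD1 KO. Beside them, 16.1% of all genes were called in E147A, where the median difference was 0.85 in the list and 0.87 over all genes. All 3 calls were lost with library medians subtracted (adjusted p from 0.770 to 0.787), with only the compared libraries (0.240 for each), without Halo-SMCHD1 replicate 1 (0.0605 to 0.112) and without the E147A library that has no matched number (0.147 to 0.418), and that of Prkx also without Halo-SMCHD1 replicate 2 (0.0775) and with a pseudocount of 0.001 (0.0571). A larger difference than that of Araf was found in 0 of the 7 in E147A and in LRIF1 KO, in 2 in Y353C (Pim2 and Irak1) and in 2 in SMCHD1 KO (Prkx and Irak1). Araf was chosen on its E147A and Y353C values, so its place there is no finding. Cdk16, a cyclin-dependent kinase that starts 0.16 Mb from Araf, was at 0.0743 and 0.149 in E147A and at 0.0265, 0.0291 and 0.0962 in Halo-SMCHD1 (1.21 ± 0.50, limma adjusted p = 0.0946). Its libraries overlapped where those of Araf did not. Between day 5 and day 7, limma called 1 of the 7 lower in Halo-SMCHD1 and 1 in G137E, beside 9.5% and 7.44% of all genes. These were Cask in Halo-SMCHD1 (-1.12 ± 0.29, limma adjusted p = 0.0387) and the mitochondrial kinase Pdk3 in G137E (-0.94 ± 0.25, limma adjusted p = 0.0493). A pseudocount of 0.001 left no gene called in either comparison, and subtracting library medians left none in G137E.

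The 5 genes whose pattern was most like that of Araf by the measure used lay far from it. Likeness was the Pearson correlation of log2 odds, with library medians subtracted, over the 16 day 7 libraries of the larger table. These libraries share lines and controls, and 7 of them are the E147A, Y353C and Halo-SMCHD1 libraries on which Araf was chosen, so it is a description. The 5 most alike were Taf1 (r = 0.75), Flna, which encodes the actin cross-linker filamin A (0.74), Ogt, the enzyme that adds O-GlcNAc to proteins (0.73), Bcap31, a protein of the endoplasmic reticulum (0.72), and the chromokinesin Kif4 (0.72). They start between 52.8 and 80.8 Mb from Araf. The highest of the neighbours was Chst7 at 0.46, which ranked 29, and Zfp182 followed at 0.44. Syn1, the nearest gene, was at -0.21. Without the subtraction of medians all these values were higher, at 0.81 for Chst7, 0.71 for Zfp182, 0.29 for Syn1 and 0.92 for Taf1.

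These 5 genes were all higher in SMCHD1 KO than in iXist-ChrX in their means. Flna was at 0.121 ± 0.021 against 0.0249 ± 0.0079, and Kif4 at 0.109 ± 0.036 against 0.0241 ± 0.010 (SD, n = 2 each). They were the 2 genes that limma called in that comparison, with differences of 2.06 and 1.93 (adjusted p = 0.00549 for both). Both calls were lost with library medians subtracted (adjusted p = 0.176), with only the compared libraries (0.419), without SMCHD1 KO replicate 2 (0.135) and without iXist-ChrX replicate 2 (0.0835). Ogt was at 0.198 ± 0.017 against 0.143 ± 0.045, a difference of 0.57 ± 0.27 (limma adjusted p = 0.363). The same SMCHD1 KO libraries entered the measure of likeness, so this is not separate support.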

How the data were processed

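Nuclear RNA bound to chromatin was sequenced in 36 libraries. The authors removed rRNA reads with Bowtie2, aligned the rest with STAR to mm10 masked at 129S and Cast SNPs, kept unique alignments, split them by allele with SNPsplit and counted them by strand over whole genes with featureCounts. Genome and annotation came from the UCSC genome browser, and the annotation release is not given in the sources used here. Deposited were allelic fractions, Xi/(Xi+Xa), that the authors computed per gene and library where enough reads covered SNPs, with neither normalization nor pooling. They fill a table of 249 genes by 30 libraries and a second of 242 by 20. The 14 shared libraries have identical values in the 239 shared genes. Columns of iXist-ChrX bear the name of a clone absent from the labels and were assigned by day, number and elimination. One E147A column at day 7 bears a number absent from the labels and was used as a library of its group. For 1 iXist-ChrX library the reads were rebuilt from alignments.

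Araf and the gene lists were chosen with earlier results of these data known. Named are Araf, its neighbours within 1 Mb, list members past the threshold with Elk1 and Cdk16 (and Rps6ka3, not in these tables), and the 5 genes most like Araf. Fractions were turned into log2 odds with a pseudocount of 0.01 and fitted with limma 3.58.1 (R 4.3.3) on all differentiated libraries of a table, without a block, with Benjamini-Hochberg adjustment over all genes of the table. The table with K518E served G137E, K518E and the days, the other all else. The script was tested on simulated data. Permutation tests used scipy 1.17.1. Depth is unknown, so precision rests on the repeats alone. Same-numbered libraries of lines did not deviate together (15 pairs, r from -0.28 to 0.15, 4 over 0.1), nor did days 5 and 7 of a line (6 pairs, -0.21 to 0.03), so the numbers do not pair them. Alternatives were other pseudocounts (0.001 and 0.05), untransformed fractions, subtraction of library medians, a fit on the compared libraries only, a replicate block, leaving out each library, genes with 0.25 to 0.75 in the uninduced libraries, another variance model, the other table, the other control line and windows of 0.5 and 2.0 Mb.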

Additional observations from a re-analysis of the deposited data

How the results depend on the processing

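The counts behind the fractions are unknown, so a low or zero value cannot be told from too few reads, and each clone stands for its line. Every Araf difference that was tested kept its direction and its side of the threshold, except in the following cases, whose causes were not tested.

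With library medians subtracted, the difference of Araf was 0.0226 for Halo-SMCHD1 minus iXist-ChrX, 0.0790 for K518E at day 5, 0.12 and 0.41 for day 7 minus day 5 in Halo-SMCHD1 and G137E, and 0.19 for the change of the K518E difference between days, all of the other sign. It was 0.38 for E147A and 0.51 for Y353C, smaller than before, with no test. With untransformed fractions the G137E difference at day 5 was 0.000555, of the other sign. The Halo-SMCHD1 difference between days passed the threshold with a pseudocount of 0.05 (-0.57, limma adjusted p = 0.0305), with untransformed fractions (-0.0497, adjusted p = 0.0199), with the replicate block (-0.87, adjusted p = 0.0329) and without day 7 replicate 3 (-0.88, adjusted p = 0.0488), where all alternatives ranged from 0.0199 to 0.851 in adjusted p. SMCHD1 KO passed it only with Halo-SMCHD1 as the control (1.09, limma adjusted p = 0.0307, with 0.967 the highest of its alternatives). Against iXist-ChrX the difference in Xi fraction was 0.0878 for E147A and 0.0594 for Y353C.

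Leaving out 1 library at a time, the Y353C difference in Xi fraction ran from 0.0622 to 0.105, the E147A difference from 0.0995 to 0.125, SMCHD1 KO from 0.23 to 1.11 in log2 odds, LRIF1 KO from 0.96 to 1.16, G137E at day 5 from -0.24 to 0.23 and Halo-SMCHD1 between days from -0.88 to -0.68. Called neighbours ran from 0 to 7 in E147A, 0 to 1 in Y353C, 0 to 1 in Halo-SMCHD1 minus iXist-ChrX and 0 to 2 in Halo-SMCHD1 between days.

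In E147A 2 neighbours were called. The count was 0 with medians subtracted, 0 with only the compared libraries, 1 with the replicate block and 1 within 0.5 Mb. The 1 called in Y353C became 0 with a pseudocount of 0.001, medians subtracted, only the compared libraries, or within 0.5 Mb. In K518E at day 5 the count was 1 with only the compared libraries. For Halo-SMCHD1 between days, where 1 was called, it was 0 with a pseudocount of 0.001, only the compared libraries or 0.5 Mb, 4 with a pseudocount of 0.05, 7 with untransformed fractions and 11 with the replicate block. For G137E between days it was 2 with untransformed fractions and 3 with the block. The window of 2.0 Mb added no gene.

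Over all genes, calls ran from 1 to 88 in E147A (40 as reported), 0 to 12 in Y353C (9), 0 to 32 in SMCHD1 KO (2), 0 to 76 in Halo-SMCHD1 between days (23) and 0 to 56 in G137E between days (18). The replicate block changed no other call of Araf than that of Halo-SMCHD1 between days, and with it Prkx, Taf1 and Cask were not called in E147A (limma adjusted p from 0.111 to 0.255). The numbers of SMCHD1 KO and iXist-ChrX were also crossed, since same-numbered libraries deviated in opposite directions (r = -0.28), a choice made after seeing the data: 2 genes were called, as with the numbers as given and with no block.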
